A study of Mus musculus with 24 samples.

Results

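The 7 genes described here encode the kainate receptor subunits (Grik1 to Grik5) and the auxiliary proteins Neto1 and Neto2. They were taken by symbol from the 55385 genes of the count table, and all 7 were found and passed the filter on low counts in each comparison. RNA-Seq was done on the hippocampus (HIP) and entorhinal cortex (EC) of 6 Ts65Dn male mice and 6 wt male littermates, 1 library per region from each mouse and 24 in all. The labels name no treatment. By the study's methods the mice were 5 to 6 months old, on the mixed B6C3B background that both genotypes share. Ts65Dn, a mouse model of Down syndrome, carries an extra minichromosome that joins a segment of Mmu16 to the centromeric part of Mmu17. Each region was taken as whole tissue, so fewer cells of a type and less RNA per cell cannot be told apart.

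Kainate receptors are tetrameric cation channels gated by glutamate. GluK1, GluK2 and GluK3, encoded by Grik1, Grik2 and Grik3, can form channels by themselves and bind glutamate with lower affinity. GluK4 and GluK5, encoded by Grik4 and Grik5, bind it with higher affinity and need a partner from the first set. Neto1 and Neto2 are single-pass membrane proteins that change the gating of these channels. In the hippocampus the family is best known at the synapses of mossy fibres on CA3 pyramidal cells, and GluK1 is best known in interneurons.

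Grik1 (ENSMUSG00000022935) lies on the minus strand at chr16:87895900-88290265 of GRCm38, inside the Mmu16 segment from Mir155 to Zbtb21 that Ts65Dn mice carry in 3 copies. The other genes lie on chromosomes with no extra copy. Grik2 (ENSMUSG00000056073) is at chr10:49094833-49788766, Grik3 (ENSMUSG00000001985) at chr4:125490700-125714173 and Grik4 (ENSMUSG00000032017) at chr9:42518135-42944493. Grik5 (ENSMUSG00000003378) is at chr7:25009849-25072346 and Neto2 (ENSMUSG00000036902) at chr8:85636588-85700924. Grik3 and Neto1 are on the plus strand and the others on the minus strand. All are protein-coding. Counts on Neto1 and Neto2 could include reads of an antisense gene, since 219 exonic bases of Neto1 are shared with AC113599.1 and 20 of Neto2 with Mir8109 on the other strand, and the strand setting of the counting is not given in the sources used here. Grik4 shares 59 exonic bases with Gm24420 on its own strand, and no annotated exon of another gene overlaps Grik1.

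RefSeq promoter sequences (GRCm38.p6) were held for 5 of the 7 genes. The 250 bases before the start site are printed for the 4 that differed between the HIP and EC and for Grik5, which differed between genotypes in the EC. Capitals mark the GC box GGGCGG on either strand (CCGCCC when read on the other). Each sequence is given on the gene's own strand, 5′ to 3′. Grik4 and Grik2 were higher in the HIP, from chr9:42944372-42944621 and chr10:49788755-49789004, both on the minus strand:
Grik4: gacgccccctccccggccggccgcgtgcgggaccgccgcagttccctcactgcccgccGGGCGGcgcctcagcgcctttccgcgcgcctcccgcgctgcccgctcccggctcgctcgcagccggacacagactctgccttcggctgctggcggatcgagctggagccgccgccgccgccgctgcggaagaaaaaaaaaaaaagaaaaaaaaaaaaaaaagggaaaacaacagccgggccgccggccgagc
Grik2: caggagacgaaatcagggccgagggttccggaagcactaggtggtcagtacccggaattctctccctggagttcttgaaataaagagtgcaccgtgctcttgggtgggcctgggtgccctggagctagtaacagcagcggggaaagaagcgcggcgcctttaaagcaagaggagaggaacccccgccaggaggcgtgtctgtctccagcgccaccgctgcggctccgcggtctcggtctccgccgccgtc
Grik3 and Neto2 were higher in the EC, from chr4:125490446-125490695 on the plus strand and chr8:85700925-85701174 on the minus strand, the latter being 1 of 2 annotated starts:
Grik3: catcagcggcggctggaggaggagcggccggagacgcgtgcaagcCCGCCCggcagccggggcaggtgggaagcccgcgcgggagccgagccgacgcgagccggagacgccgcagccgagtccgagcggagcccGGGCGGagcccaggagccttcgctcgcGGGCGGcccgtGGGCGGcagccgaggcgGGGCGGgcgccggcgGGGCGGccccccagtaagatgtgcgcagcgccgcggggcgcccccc
Neto2: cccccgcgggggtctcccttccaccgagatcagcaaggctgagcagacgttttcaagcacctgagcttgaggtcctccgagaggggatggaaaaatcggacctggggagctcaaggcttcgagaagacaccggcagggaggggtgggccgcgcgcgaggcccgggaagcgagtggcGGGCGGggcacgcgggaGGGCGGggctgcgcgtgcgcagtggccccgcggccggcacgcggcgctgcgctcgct
Grik5, from chr7:25072370-25072619 on the minus strand, reads:
Grik5: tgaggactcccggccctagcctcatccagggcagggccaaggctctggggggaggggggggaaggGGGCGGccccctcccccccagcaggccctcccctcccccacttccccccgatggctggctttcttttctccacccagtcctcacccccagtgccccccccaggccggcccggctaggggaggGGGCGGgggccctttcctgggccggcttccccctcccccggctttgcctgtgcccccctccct
The Grik3 window held 6 GC boxes, Neto2 and Grik5 held 2 each, Grik4 held 1 and Grik2 held none of these letters. Over 32851 promoter windows of the same length, 32.7% held at least 1. CpG dinucleotides numbered 42 for Grik3, 36 for Grik4, 30 for Neto2, 20 for Grik2 and 8 for Grik5, against a median of 6 over all windows. All 5 windows lay above that median, whichever region the gene was higher in. Grik1 and Neto1 had no entry.

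Library totals ranged from 23128589 to 40476492 counts. The counts behind a single value ran from 261 to 708 for Grik1, the least counted of the 7, and from 2873 to 8857 for Neto1. Tissue labels held: 6 hippocampal markers summed to 372 to 577 CPM (counts scaled to library size, with TMM factors) in HIP libraries against 24.2 to 34.2 in EC libraries, and 6 cortical markers to 141 to 242 against 534 to 766. The genotype label was checked on the other genes of the Mmu16 segment, where 3 copies predict a fold of 1.5. Over the wt mean, the median fold of 5 of the 6 Ts65Dn libraries was 1.44 to 1.54 for the HIP, and that of 5 of 6 was 1.46 to 1.52 for the EC. The libraries labelled Ts65Dn replicate 3, both from 1 mouse, gave 1.02 for the HIP and 1.002 for the EC, inside or just above the wt ranges of 0.982 to 1.01 and 0.981 to 1.01. They were kept under their label, and the genotype differences of the 7 genes are also given without them.

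**Figure D1:**
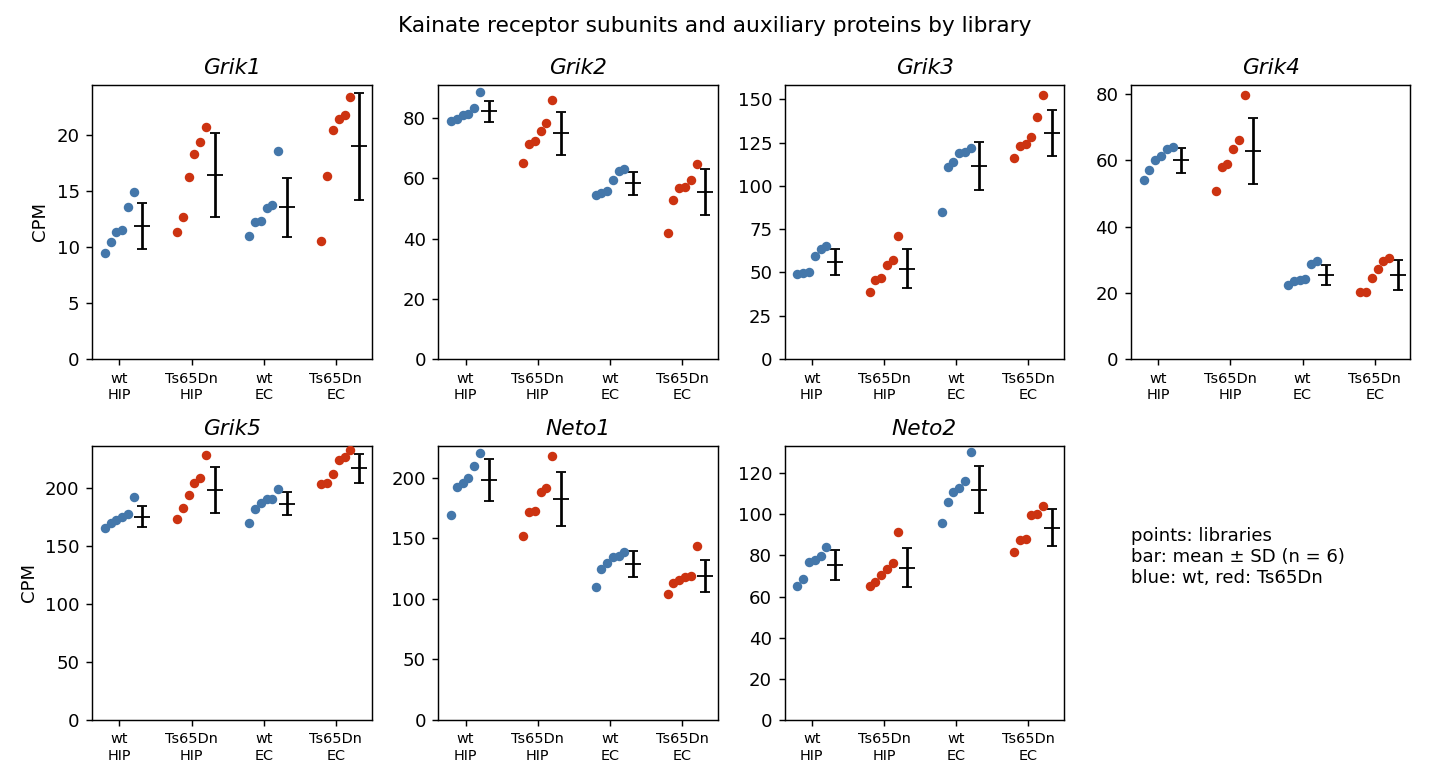
CPM of each gene (y axes, from 0) in the 24 libraries, by genotype and region. Points are libraries in order of level and bars are the mean ± SD of 6. In the Grik1 panel the genotypes overlap in both regions, and in the Grik5 panel the EC groups do not overlap.

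Levels of different genes were compared as CPM per kilobase of exon, in wt mice. Grik5 was the most abundant of the 7 and Grik1 the least in both regions, and the order between them differed by region. In the wt HIP, Grik5 stood at 33.9 ± 1.82 (SD, n = 6) CPM per kilobase, followed by Neto1 at 23.7 ± 2.09, Neto2 at 12.3 ± 1.17, Grik4 at 10.1 ± 0.633, Grik3 at 6.27 ± 0.835, Grik2 at 6.20 ± 0.265 and Grik1 at 1.76 ± 0.303. The ranges of Neto2 and Grik4, and of Grik3 and Grik2, overlapped, while each other neighbour in this order was separate in all 6 libraries. In the wt EC, Grik5 at 36.1 ± 1.92 was followed by Neto2 at 18.3 ± 1.86, Neto1 at 15.4 ± 1.27, Grik3 at 12.4 ± 1.54, Grik2 at 4.40 ± 0.287, Grik4 at 4.26 ± 0.507 and Grik1 at 2.01 ± 0.393. There the ranges of Neto2 and Neto1, of Neto1 and Grik3, and of Grik2 and Grik4 overlapped. Lengths are the union of annotated exons, and Grik1, whose longest transcript is 3655 of 6721 exonic bases, stood at 3.24 (HIP) and 3.70 (EC) when that length was used.

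**Figure D2:**
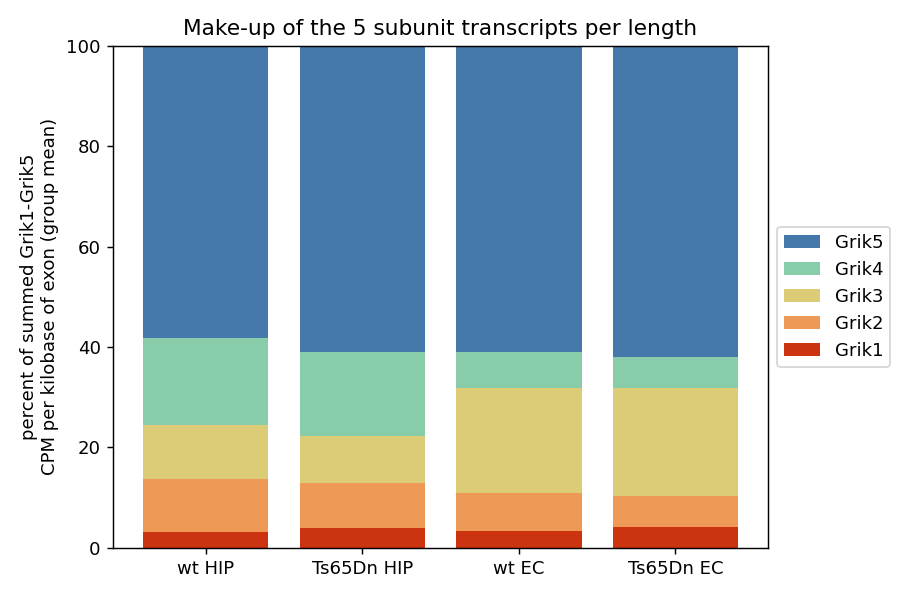
Share of each subunit transcript in the summed CPM per kilobase of exon of Grik1 to Grik5, as group means of 6 libraries (y axis, percent, stacked). Grik5 takes 58.2% in the wt HIP and 60.9% in the wt EC, while Grik4 falls from 17.3% to 7.19% and Grik3 climbs from 10.7% to 21.0%.

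In the make-up of the 5 subunit transcripts per length, Grik5 held the largest share, at 58.2% ± 1.05 (SD, n = 6) in the wt HIP and 60.9% ± 2.72 in the wt EC. Grik4 held 17.3% ± 1.25 in the wt HIP against 7.19% ± 0.762 in the wt EC, and Grik3 10.7% ± 1.20 against 21.0% ± 2.42. For the HIP, Grik1 held 3.03% ± 0.530 in wt mice and 3.86% ± 0.671 in Ts65Dn mice, and for the EC 3.40% ± 0.631 and 4.15% ± 1.02. Without Ts65Dn replicate 3 the Grik1 share in Ts65Dn mice was 4.04% (HIP) and 4.50% (EC). The ratio of transcripts of the high-affinity subunits (Grik4 and Grik5) to those of the low-affinity subunits (Grik1, Grik2 and Grik3) was 3.10 ± 0.224 in the wt HIP. It was 2.16 ± 0.285 in the wt EC. The 2 ranges met, at 2.72 in the lowest HIP and the highest EC library. The 2 Neto genes changed order between regions. The ratio of Neto1 to Neto2 ran from 1.68 to 2.37 in the wt HIP and from 0.760 to 1.06 in the wt EC, and no library of one region reached the other. These ratios are descriptions, with no test.

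The largest differences in the family were between regions, which addresses the make-up of its transcripts in each tissue. Protein and the assembly of receptors were not measured. In wt mice 5 of the 7 genes (3 higher in the HIP and 2 lower) differed between the HIP and EC (edgeR's quasi-likelihood test with mouse as a block, Benjamini-Hochberg adjusted p-value under 0.05). Regions differed widely, and 61.3% of 17196 genes tested were called in this comparison (31.0% higher and 30.3% lower), so this count stands near the background. Grik4, Neto1 and Grik2 were higher in the HIP, and Grik3 and Neto2 in the EC. The median size of the log2 difference was 0.58 over the 7 genes and 0.28 over all genes tested. In each of these 5 genes all 6 wt mice moved the same way, as did 55.6% of all genes tested. The same 5 genes were called in the same directions in Ts65Dn mice, where 52.3% of 17314 genes tested were called (26.6% higher and 25.7% lower) and 46.6% moved the same way in all 6 mice.

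Grik4, a high-affinity subunit, ranged from 54.2 to 64.0 CPM (median 60.8) in the wt HIP and from 22.3 to 29.7 (median 24.1) in the wt EC. In Ts65Dn mice it ranged from 50.8 to 79.8 (median 61.2) in the HIP and from 20.2 to 30.4 (median 25.8) in the EC. The regions did not overlap in either genotype. The log2 fold change of HIP against EC was 1.24 (SE 0.07, adjusted p = 2.84e-07) in wt and 1.31 (SE 0.12, adjusted p = 7.42e-06) in Ts65Dn, and within a mouse the HIP was 1.89 to 3.95 times the EC.

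Neto1 (ENSMUSG00000050321, chr18:86394952-86506718), an auxiliary protein, ranged from 169 to 221 CPM (median 198) in the wt HIP and from 109.9 to 139 (median 132) in the wt EC. In Ts65Dn mice it lay between 152 and 218 (median 180.4) in the HIP and between 104 and 144 (median 117) in the EC. HIP libraries were higher throughout. The log2 fold change was 0.62 (SE 0.06, adjusted p = 1.10e-05) in wt and 0.61 (SE 0.08, adjusted p = 9.08e-05) in Ts65Dn.

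Grik2, which encodes a low-affinity subunit, ranged from 79.1 to 88.6 CPM (median 81.2) in the wt HIP and from 54.3 to 62.9 (median 57.6) in the wt EC. In Ts65Dn mice the ranges were 65.2 to 86.1 (median 74.2) in the HIP and 41.8 to 64.9 (median 57.0) in the EC, so that the lowest HIP library lay just above the highest EC library. Its log2 fold change was 0.49 (SE 0.04, adjusted p = 1.91e-06) in wt and 0.44 (SE 0.08, adjusted p = 0.000918) in Ts65Dn.

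Grik3, another low-affinity subunit, was lower in the HIP. It ranged from 48.8 to 65.3 CPM (median 55.0) in the wt HIP and from 84.7 to 122 (median 116) in the wt EC. In Ts65Dn mice it ranged from 38.9 to 70.9 (median 50.5) in the HIP and from 116.0 to 153 (median 126) in the EC. No HIP library reached an EC library. As a log2 fold change this was -0.99 (SE 0.06, adjusted p = 2.76e-07) in wt and -1.35 (SE 0.11, adjusted p = 3.15e-06) in Ts65Dn.

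Neto2, the other auxiliary protein, was also lower in the HIP. In wt mice it lay between 65.1 and 84.0 CPM (median 77.3) in the HIP and between 95.8 and 130.2 (median 112) in the EC. In Ts65Dn mice it lay between 65.1 and 91.5 (median 71.9) in the HIP and between 81.7 and 104 (median 93.8) in the EC, where the libraries of the regions overlapped although each mouse had more in its EC. The log2 fold change was -0.58 (SE 0.06, adjusted p = 1.44e-05) in wt and -0.35 (SE 0.07, adjusted p = 0.00172) in Ts65Dn.

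Grik1 and Grik5 were not called between regions. The Grik1 log2 fold change of HIP against EC was -0.19 (95% interval -0.37 to -0.01, adjusted p = 0.0671) in wt and -0.20 (-0.43 to 0.02, adjusted p = 0.119) in Ts65Dn, and the HIP was the lower region in 4 of 6 wt and 5 of 6 Ts65Dn mice. For Grik5 it was -0.09 (-0.18 to 0.00, adjusted p = 0.0763) in wt and -0.14 (-0.27 to -0.01, adjusted p = 0.0615) in Ts65Dn. With the dependence on GC content and length removed, Grik1 was called lower in the HIP of wt mice, at -0.25 (adjusted p = 0.0208). It was also called lower there in 2 of 6 fits that left out 1 mouse. Grik5 was called lower in the HIP in 1 of 6 such fits in each genotype.

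**Figure D3:**
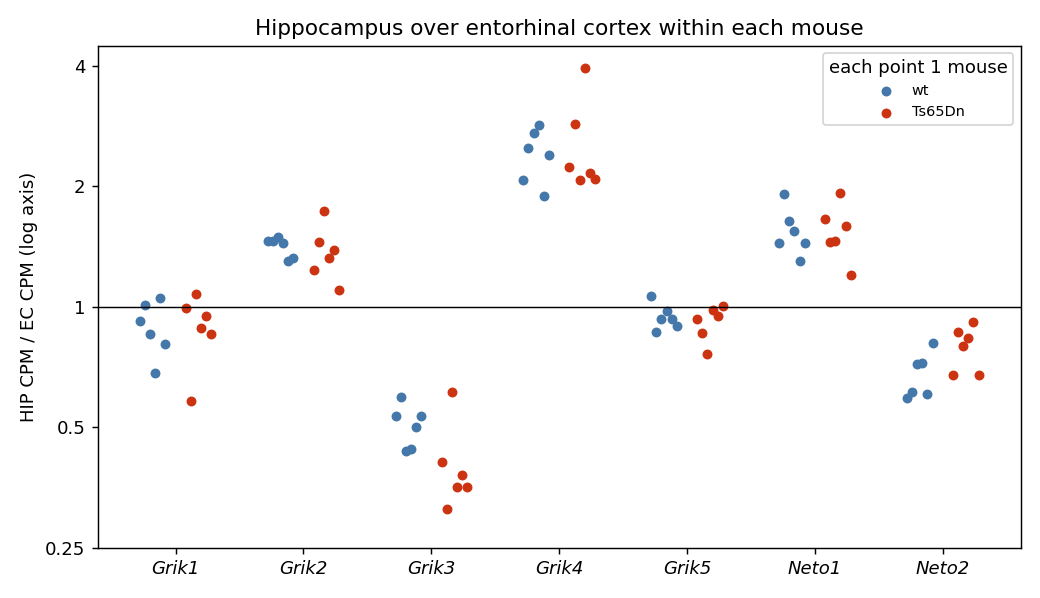
CPM of the HIP divided by CPM of the EC within each of 12 mice (y axis, log scale), for each gene, in wt (blue) and Ts65Dn (red); the line marks equal levels. All 12 mice lie above the line for Grik2, Grik4 and Neto1 and below it for Grik3 and Neto2, while Grik1 and Grik5 straddle it.

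Cell type markers moved with region too. Markers of oligodendrocytes (3 genes) summed to 5105 to 8096 CPM (HIP) and 1077 to 2224 (EC), those of choroid plexus (4 genes) to 50.9 to 5044 and 8.04 to 48.9, and those of striatal neurons (6 genes) to 55.9 to 89.6 and 161 to 243. Markers of GABAergic interneurons (7 genes), in which Grik1 is best known, summed to 699 to 959 (HIP) and 961 to 1095 (EC). In each genotype 4 of the 7 were called lower in the HIP and 0 higher. Of all genes tested, 30.3% (wt) and 25.7% (Ts65Dn) were called lower. Gad1, Gad2 and Pvalb were not called in either genotype, and Gad1 and Gad2 stood at -0.04 and -0.05 in wt mice. The part of these cell types in the differences between regions was not tested.

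For genotype, the question is whether the third copy of Grik1 raised its transcript and whether the other genes of the receptor changed with it. Grik1 had the largest positive log2 fold change of the 7 in both regions, near that of its segment, but did not pass the test in either with all libraries included. Of the 7 genes, none was called in the HIP, where 1.04% of 17355 genes tested were called, and 1 was called in the EC, where 2.50% of 17049 were. The gene called in the EC was Grik5, which rose, as did 1.15% of genes tested. An unadjusted p under 0.05 was seen for 3 of the 7 in the HIP, against 14.8% of all genes tested, and for 4 in the EC, against 19.0%. DESeq2 likewise called 0 of the 7 in the HIP. The median log2 fold change of all genes tested was 0.00 in both regions.

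For the HIP, Grik1 measured 9.41 to 14.9 CPM (median 11.4) in wt mice and 11.3 to 20.7 (median 17.2) in Ts65Dn mice. For the EC the wt span was 10.9 to 18.5 (median 12.9) and the Ts65Dn span 10.5 to 23.4 (median 20.9). The groups overlapped in both regions, and the lowest Ts65Dn library of each was replicate 3, in which the segment was not raised. The log2 fold change for the HIP was 0.46 (SE 0.15, 95% interval 0.13 to 0.79, adjusted p = 0.173), or 1.38-fold, and for the EC 0.48 (SE 0.17, 0.11 to 0.85, adjusted p = 0.144), or 1.40-fold. Both intervals lie above 0 and include the log2 of a 1.5-fold change, 0.58. None of the 7 interneuron markers was called between genotypes. Their sums ran from 699 to 959 CPM in the wt HIP against 787 to 893 in Ts65Dn, and from 962 to 1080 against 961 to 1095 for the EC.

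Without Ts65Dn replicate 3 the Grik1 log2 fold change was 0.60 (SE 0.13, 0.34 to 0.87, adjusted p = 0.0228) in the EC, or 1.52-fold, and Grik1 was called there, with 2.79% of 17229 genes. In the HIP it was 0.55 (SE 0.14, 0.25 to 0.85, adjusted p = 0.0686), or 1.46-fold, and was not called, where 1.82% of 17452 genes were. By library, the Grik1 fold over the wt mean in Ts65Dn replicates 1 to 6 was 1.37, 1.06, 0.952, 1.75, 1.63 and 1.54 in the HIP. In the EC it was 1.21, 1.61, 0.778, 1.73, 1.51 and 1.58. Among the mice with a raised segment, replicate 2 was low in the HIP only and replicate 1 was the lowest of the 5 in the EC. The wt libraries spanned 0.793 to 1.26 (HIP) and 0.808 to 1.37 (EC), and so their highest library lay above 2 Ts65Dn libraries in each region.

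**Figure D4:**
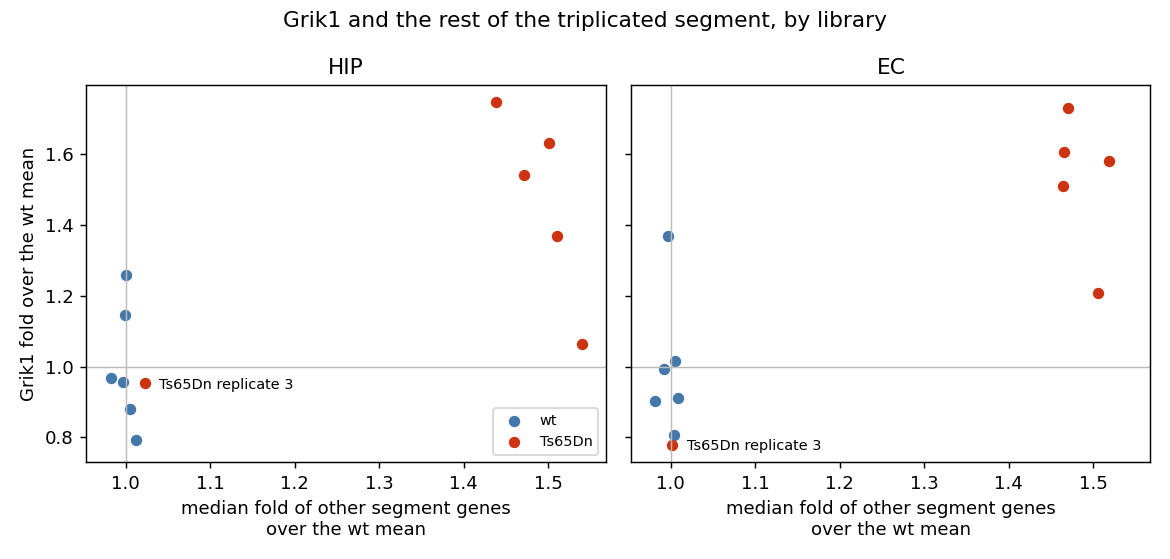
Grik1 fold over the wt mean (y axis) against the median fold of the other tested genes of the Mmu16 segment (x axis) for each library of the HIP (left) and EC (right), wt in blue and Ts65Dn in red. The libraries labelled Ts65Dn replicate 3 sit beside the wt libraries on the x axis, at segment medians of 1.02 and 1.002, and the other Ts65Dn libraries lie at 1.44 and above, with Grik1 folds from 1.06 to 1.75.

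The segment holds 288 annotated genes, of which 90 with Grik1 were tested for the HIP and 87 for the EC. The other tested genes had a median log2 fold change of 0.50 in both regions, with 42 of 89 called higher in Ts65Dn for the HIP and 43 of 86 for the EC, and 0 lower. Without Ts65Dn replicate 3 the median was 0.57 in both, with 58 of 91 called higher (HIP) and 61 of 88 (EC). With all libraries, a larger log2 fold change than that of Grik1 was seen for 55 of the 89 other genes (HIP) and 48 of the 86 (EC). With all libraries Grik1 thus lay somewhat below the median of its segment in both regions, by less than its SE. Without Ts65Dn replicate 3 it stood at 0.55 in the HIP, just below the segment median of 0.57. In the EC it then stood at 0.60, above the segment median of 0.57. The nearest tested genes on either side were 2810407A14Rik, a non-coding gene 56.6 kb away with log2 fold changes of 0.51 (HIP) and 0.48 (EC) (adjusted p = 0.213 and 0.260), and Gm46546, a pseudogene 170 kb away with 0.35 and 0.49 (adjusted p = 0.782 and 0.533). Neither passed the test. On simulated counts the test recovered 60.5% of 200 genes changed 1.5-fold (HIP) and 57.5% (EC), so it can miss a change of that size. Genes raised in the simulation, where every Ts65Dn library was raised, had a median log2 fold change of 0.59 (HIP) and 0.60 (EC). The segment stood at 0.50 with all libraries and at 0.57 without Ts65Dn replicate 3, in both regions. No rate was worked out for genes with counts as low as those of Grik1, nor for a group with an unraised library like Ts65Dn replicate 3. Why Grik1 was not called with all libraries was not tested.

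Grik5, the most abundant subunit, ranged from 170 to 199 CPM (median 189) in the wt EC and from 203 to 233 (median 218) in the Ts65Dn EC. All 6 Ts65Dn libraries lay above all 6 wt libraries, replicate 3 included, as did 1.27% of genes tested. The log2 fold change was 0.21 (SE 0.05, 0.11 to 0.32, adjusted p = 0.0360), or 1.16-fold, and 0.20 (adjusted p = 0.0495) without replicate 3. Grik5 has the highest exonic GC content of the 7, 61.7%, and with the dependence on GC content and length removed the log2 fold change was 0.08 (-0.01 to 0.17, adjusted p = 0.442). The call was also lost in 8 of 12 fits that left out 1 mouse. In the HIP Grik5 ranged from 166 to 193 CPM (median 174) in wt and from 173 to 228 (median 199) in Ts65Dn, with overlap and a log2 fold change of 0.17 (SE 0.06, adjusted p = 0.204), or 0.21 (adjusted p = 0.0847) without replicate 3.

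Neto2 in the EC had the opposite sign, at -0.27 (SE 0.08, -0.43 to -0.11, adjusted p = 0.0757), with a median of 112 CPM in wt and 93.8 in Ts65Dn and overlapping ranges. DESeq2 called it lower (adjusted p = 0.0219). Its exons have the lowest GC content of the 7, 36.5%, and with GC content and length removed the value was -0.06 (-0.21 to 0.09, adjusted p = 0.764). In the HIP Neto2 stood at -0.03 (-0.21 to 0.15, adjusted p = 0.902). Among the cell type markers 3 were called between genotypes in the EC, where 2.50% of all genes tested were called. Calb1, which stands on the list of 4 dentate granule cell markers but in wt mice was higher in the EC (mean 244 CPM) than in the HIP, had a log2 fold change of -0.31 (adjusted p = 0.00922), and the other 3 of its list were not called. P2ry12, a receptor of microglia, stood at -0.45 (adjusted p = 0.0226), with the 3 microglial markers summing to 226 to 302 CPM in wt and 209 to 257 in Ts65Dn. Drd2, a dopamine receptor of striatal neurons, stood at 1.56 (adjusted p = 0.0254) with a mean of 1.33 CPM in wt and 3.93 in Ts65Dn, and the 6 striatal markers summed to 172 to 200 and 161 to 243. In the HIP, where 1.04% of all genes tested were called, P2ry12 was the 1 marker called, at -0.27 (adjusted p = 0.0422). The part of these markers in the genotype values was not tested.

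The remaining genes did not pass in either region. Grik2 had a log2 fold change of -0.14 (-0.26 to -0.01, adjusted p = 0.306) in the HIP and -0.08 (-0.27 to 0.11, adjusted p = 0.674) in the EC. For Grik3 the values were -0.11 (-0.39 to 0.17, adjusted p = 0.738) and 0.22 (0.03 to 0.40, adjusted p = 0.190). Grik4 stood at 0.06 (-0.13 to 0.25, adjusted p = 0.800) and -0.01 (-0.25 to 0.23, adjusted p = 0.977). Neto1 stood at -0.12 (-0.29 to 0.05, adjusted p = 0.518) and -0.12 (-0.28 to 0.04, adjusted p = 0.398). The intervals of all 4, and of Neto2, end below a 1.5-fold rise in both regions. Without Ts65Dn replicate 3 these 4 genes and Neto2 ran from -0.22 (Grik3) to 0.11 (Grik4) in the HIP and from -0.23 (Neto2) to 0.25 (Grik3) in the EC, and none was called.

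**Figure D5:**
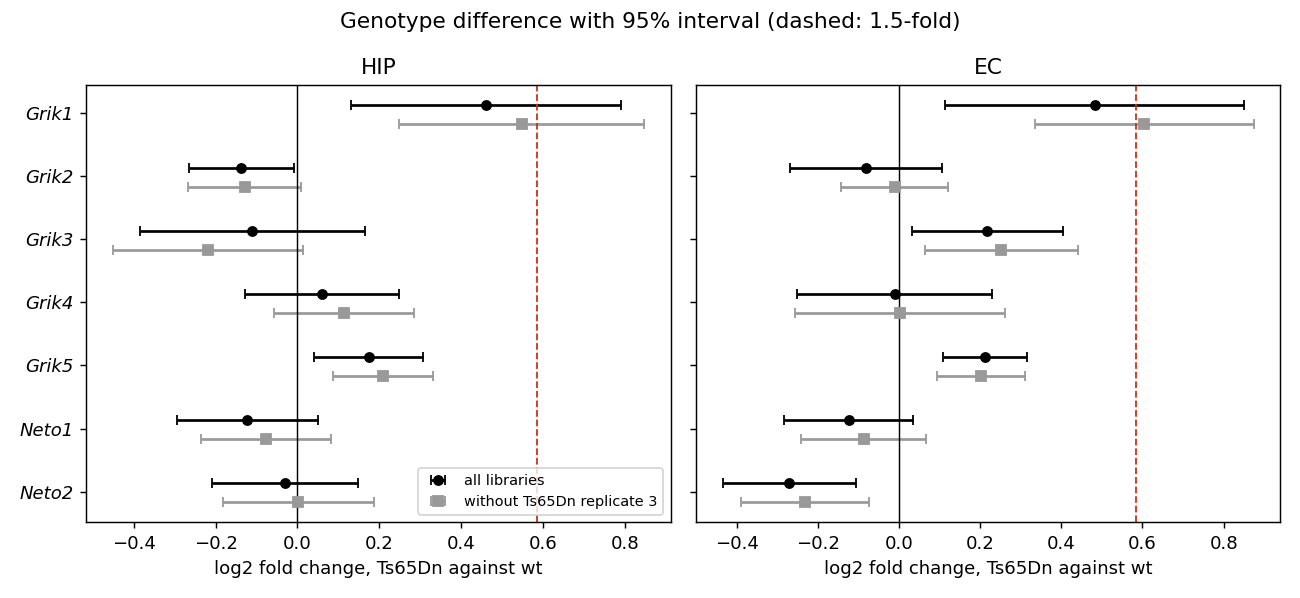
Log2 fold change of Ts65Dn against wt with its 95% interval (x axes) in the HIP and EC, with all libraries (black) and without Ts65Dn replicate 3 (grey); the dashed line marks a 1.5-fold rise. The Grik1 intervals include the line and lie above 0, while the intervals of the other 6 genes end below the line.

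The difference between the genotype effects of the 2 regions was tested in 1 model over 24 libraries with a term for each mouse. With DESeq2, run on all genes with at least 1 count, no gene was called. With edgeR no gene of 18109 was called, at a background of 0%, and 742 (4.10%) had an unadjusted p under 0.05. Of the 7 genes, 2 had an unadjusted p under 0.05. Grik3 had a genotype effect lower in the HIP than in the EC by -0.35 on the log2 scale (-0.63 to -0.07, unadjusted p of the edgeR fit 0.0164, adjusted p = 0.9998), and Neto2 one higher by 0.23 (0.03 to 0.43, unadjusted p of the edgeR fit 0.0291, adjusted p = 0.9998). For Grik1 the difference was -0.01 (-0.31 to 0.28). Every such difference failed the correction. Without Ts65Dn replicate 3 the values were -0.48 for Grik3 (adjusted p = 0.442), 0.23 for Neto2 (adjusted p = 0.762) and -0.07 for Grik1 (adjusted p = 0.953), and no gene was called.

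A list of 28 genes tied to kainate receptors was examined beside the family: proteins of trafficking and anchoring, SUMO conjugation, synaptic organisers, RNA editing, and kinases and a G protein. Of these 27 were tested, Klhl17 not being matched. None was called between genotypes in the HIP or the EC, with an unadjusted p under 0.05 for 3 (HIP, 14.8% of all genes) and 8 (EC, 19.0% of all genes), and the median log2 fold changes were 0.02 and 0.00. Without Ts65Dn replicate 3, Prkaca, a catalytic subunit of protein kinase A, was called higher in the HIP at 0.16 (adjusted p = 0.0352), where 1.82% of genes were called, and none was called in the EC. Between regions, 6 were called higher in the HIP and 12 lower in wt mice, and 5 and 12 in Ts65Dn mice, at the backgrounds given above. The median was -0.08 in each genotype. C1ql2, a secreted synaptic organiser of mossy fibres that binds GluK2 and GluK4, had the largest difference. It ranged from 39.1 to 69.6 CPM in the wt HIP and from 0.509 to 1.67 in the wt EC, with log2 fold changes of 5.77 (SE 0.21, adjusted p = 1.53e-08) in wt and 6.31 (SE 0.16, adjusted p = 4.06e-09) in Ts65Dn. C1ql2 also stands on the list of dentate granule cell markers.

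Prkca, a protein kinase C, ranged from 462 to 565 CPM in the wt HIP and from 231 to 295 in the wt EC. Its log2 fold change was 1.003 (SE 0.04, adjusted p = 4.18e-08) in wt and 1.08 (SE 0.08, adjusted p = 2.66e-06) in Ts65Dn. Adarb2, of the family of enzymes that edit adenosines in RNA, ranged from 24.9 to 29.0 CPM in the wt HIP and from 12.2 to 15.1 in the wt EC. Its log2 fold change was 0.94 (SE 0.05, adjusted p = 2.64e-07) in wt and 0.83 (SE 0.07, adjusted p = 5.47e-06) in Ts65Dn. Of the same family, Adarb1 was higher in the HIP by 0.10 (wt) and 0.15 (Ts65Dn), while Adar was lower, at -0.45 and -0.43. Editing itself was not measured. Among trafficking proteins 8 of 14 tested were called lower in the HIP of wt mice, where 30.3% of all genes were, and 7 of 14 in Ts65Dn mice, where 25.7% were. Dlg1 and Cask were among them in both genotypes, and Grip1, a scaffold protein, was called higher in both.

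The genes whose log2 CPM followed each member most closely over 24 libraries were also listed, as a description, since the libraries share 12 mice and 2 regions. Grik1 was most like Synj1 (Pearson's r = 0.857), Serac1 (0.830) and Ttc3 (0.825). Synj1 and Ttc3 lie in the Mmu16 segment and Serac1 in the Mmu17 part of the minichromosome, so Ts65Dn mice carry these genes in 3 copies too. In deviations from the 4 group means Grik1 was most like Rragb (0.850), Donson (0.799) and Mst1r (0.795). Donson also lies in the Mmu16 segment. Ts65Dn replicate 3, in which the segment was not raised, was kept in these means, and its part in the values was not tested. Grik3 was most like Asic1 (0.975), Garnl3 (0.973) and Cntn6 (0.969), and Grik4 most like Hpca (0.983), Rerg (0.977) and Kcng2 (0.977).

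Grik2 was most like Fgd4 (0.953), Rtl4 (0.948) and Hectd2 (0.947), and Grik5 most like Gm10819 (0.924), Mapk8ip2 (0.920) and Mapk8ip1 (0.915). Neto1 was most like Sms (0.975), Ppp4r4 (0.967) and Mindy3 (0.958), and Neto2 most like Zfp367 (0.920), Mtpn (0.915) and Spcs3 (0.914). Within the family, Grik4 and Neto1 had r = 0.930, Grik2 and Neto1 0.893, and Grik3 and Grik4 -0.906. In deviations from the group means these were 0.598, 0.442 and -0.006, so that the close negative relation of Grik3 and Grik4 was one between groups.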

How the data were processed

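The 24 RNA-Seq libraries came from 6 Ts65Dn and 6 wt male mice, each with an HIP and an EC library, with groups and mouse numbers from the sample labels. The kit is a stranded mRNA kit by the labels but a stranded total RNA kit by the methods. The authors demultiplexed with bcl2fastq 2.17.1.14, aligned single-end reads to GRCm38 with Hisat2 and deposited raw HTSeq-count counts per gene, without normalization. The authors' tables of their own comparisons were not used. Genes were matched to GENCODE vM21 (99.6% of 55385).

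The members and lists were chosen with earlier results of these data known. Genotypes were compared within each region and regions within each genotype with mouse as a block, using edgeR 4.0.16 in R 4.3.3 (filterByExpr, TMM, quasi-likelihood test, Benjamini-Hochberg adjusted p under 0.05 over all genes tested). Correlations were taken on log2 CPM (prior count 2). Named genes were the 7 members, their 3 most like genes, called partners (for region the 3 with the largest change in both genotypes) and the nearest tested neighbours of Grik1. Dlg1, Cask, Grip1, Prkaca, Adar, Adarb1, Calb1, P2ry12, Drd2, Gad1, Gad2 and Pvalb were named after their values were seen. Alternatives were DESeq2 1.42.0, DESeq2 size factors, no filter, at least 10 counts, removal of GC content and length, a replicate block, limma 3.58.1 on all libraries and leaving out each mouse. The segment, shares and partner list without Ts65Dn replicate 3 were added after the data were seen. HIP and EC of 1 mouse deviated together from their group means (r from 0.178 to 0.426), and the labels give them the same mouse. Nothing states whether wt and Ts65Dn mice of 1 number share a litter. The tests were checked on simulated counts. Depth was 23128589 to 40476492 counts, and intervals cover the spread between these mice. Figures used matplotlib.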

Additional observations from a re-analysis of the deposited data

Results flagged for a closer look

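Over 28 groups of 6 libraries (7 genes by 4 groups), 3 held a library far from the rest by Dixon's criterion, and chance gives about 1 in 20 groups. All 3 were in the EC. Grik1 stood at 18.5 CPM in wt replicate 6, against 10.9 to 13.7 in the other wt libraries, and this library lay above 2 of the 6 Ts65Dn libraries of the EC. Grik3 stood at 84.7 CPM in wt replicate 2, against 110.7 to 122 in the others. Neto1 stood at 143.6 CPM in Ts65Dn replicate 6, against 104 to 119 in the others.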

How the results depend on the processing

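In each genotype the 5 genes that differed between regions kept their direction and their call under all 12 alternatives run (6 fits that left out 1 mouse and 6 other settings). The genotype results depended more on the processing. With DESeq2, 589 genes were called in the HIP and 1098 in the EC, against 181 and 426, and 2 of the 7 members in the EC against 1, Neto2 being added. With no filter on low counts 275 genes and 0 members were called in the EC, and 37 genes against 0 for the difference between regions. With GC content and length removed, 103 genes were called in the HIP, and 132 genes and 0 members in the EC. limma on all 24 libraries called 766 genes in the EC.

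The replicate numbers did not pair wt with Ts65Dn mice: the deviations of libraries of the same number had r from -0.198 to 0.166. With a replicate block 29 genes were called in the HIP, and 36 genes and 0 members in the EC.

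Without 1 mouse at a time, 54 to 318 genes were called in the HIP, and 90 to 685 genes and 0 to 2 members in the EC, and the Grik1 log2 fold change in the EC ran from 0.41 to 0.60. Grik5 in the EC kept its call in 4 of these 12 fits, with an adjusted p of up to 0.0920 without Ts65Dn replicate 1. Neto2 in the EC was called without Ts65Dn replicate 6 (adjusted p = 0.0464).

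Signs that turned belonged to small effects that were not called. With GC content and length removed, the log2 fold change became 0.0042 for Grik2 and 0.14 for Neto2 in the HIP, 0.093 for Grik2 and 0.021 for Neto1 in the EC, and 0.017 for Grik5 between regions in wt mice. Leaving out 1 mouse gave -0.017 to 0.11 for Grik4 and -0.10 to 0.0058 for Neto2 in the HIP, and -0.069 to 0.047 for Grik4 in the EC. For the difference between regions it gave -0.085 to 0.10 for Grik1, -0.13 to 0.0051 for Grik2, -0.057 to 0.12 for Grik4, -0.076 to 0.0036 for Grik5 and -0.059 to 0.066 for Neto1. The cause of these changes was not tested.

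With the longest transcript as length, the CPM per kilobase in the wt HIP and wt EC was 3.24 and 3.70 for Grik1, 8.72 and 6.19 for Grik2, and 43.2 and 45.9 for Grik5. With Spearman's correlation 7 of the 24 most like genes were shared. Low counts limit Grik1 most, with 261 counts in its lowest library.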
